A study of Homo sapiens with 4 samples.

Results

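Aminoacyl-tRNA synthetases are the enzymes that load each amino acid onto its transfer RNA. The genes described here are 35 named synthetase genes out of 56865 annotated genes, 19 for the cytosolic enzymes and 16 for the mitochondrial ones. They were taken by symbol from a list, with no cut-off on a measured value. The list was chosen with earlier results of these data known. The RNA-seq libraries, made from poly(A) RNA, come from passage 12 of the established human cell line MDA-MB-468, labelled as triple negative breast cancer. Cells received 5 µM MS1943 for 3 days (n = 2) or DMSO, the vehicle (n = 2), with no time given for DMSO. By the title, MS1943 degrades EZH2, the methyltransferase of the Polycomb complex PRC2. Dishes were seeded in duplicate, and no label says whether these came from separate cultures. The p-values below therefore reflect only how far these libraries differ within a group, which may be technical. Synthetase genes outside the list are not described here, except TARS3 within a list of related genes.

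Each human cell runs separate sets of these enzymes from nuclear genes, since mitochondria translate their own few messages with their own tRNAs. Most amino acids have a separate gene for each compartment. GARS1 (glycine) and KARS1 (lysine) each encode both forms, and EPRS1 joins the glutamate and proline enzymes in a single chain. QARS1 has no mitochondrial counterpart, because mitochondria make glutaminyl-tRNA by charging with EARS2 and then amidating the glutamate. Many cytosolic synthetase genes are known targets of ATF4, the transcription factor of the amino acid and endoplasmic reticulum stress response, which acts through a short DNA element together with C/EBP family partners. A large multisynthetase complex holds 7 cytosolic members (EPRS1, IARS1, KARS1, LARS1, MARS1, QARS1 and RARS1).

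The libraries held 47564377 to 71378893 estimated reads, and each synthetase gene had at least 641 reads in every library. EZH2 transcripts stood at 126 and 117 CPM with DMSO and at 104 and 108 CPM with MS1943, a small fall (log2 fold change -0.19 ± 0.06, edgeR adjusted p = 0.0061). The epithelial markers EPCAM, CDH1, KRT8, KRT18 and KRT19 and the receptor gene EGFR summed to 5462 to 6706 TPM, and PTPRC and CD3E, markers of blood cells, stood below 0.1 TPM in each library. Of the 9 listed leukocyte, endothelial and fibroblast markers, 5 could be tested, and their sum was 201 TPM in both DMSO libraries and 114 and 118 TPM in the MS1943 libraries. Most of it was CD14, a leukocyte marker, at a mean of 188 TPM with DMSO and 99.5 TPM with MS1943. CD14, PECAM1 and VWF were called lower, and the fibroblast markers COL1A1 and PDGFRB higher. PECAM1, VWF and PDGFRB stood at 0.75 TPM or less in each library. The fibroblast markers COL1A2 and DCN could not be tested. COL1A1 stood at 12.5 and 10.2 TPM with DMSO and at 17.8 and 15.1 TPM with MS1943 (log2 fold change 0.51 ± 0.07, edgeR adjusted p = 4.12e-06). The part of CD14 or COL1A1 in the results below was not tested. Reads of the mitochondrial genome took 1.65% and 1.78% of the total with DMSO and 3.52% and 3.11% with MS1943. Values per gene are CPM, reads per 1000000 reads scaled between libraries by TMM, unless TPM is named. TPM is Salmon's abundance per transcript length and is used here to compare genes with each other. TPM is not TMM scaled, and on it the median of all genes lies at -0.12 on the log2 scale, so fold changes are taken from the CPM fit alone.

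The cytosolic set rose and the mitochondrial set did not move as one. Of 19 cytosolic genes, 17 rose, QARS1 fell and VARS1 did not pass, with a median log2 fold change of 0.52. Of 16 mitochondrial genes, 5 rose, 7 fell and 4 did not pass, with a median of 0.04. Across all 19358 tested genes, 30.0% were called higher and 29.4% lower, and the median was -0.01. The share of cytosolic genes called higher stands well above that background. The mitochondrial share called higher lies near it, and the mitochondrial share called lower is above it. Calls rest on the edgeR quasi-likelihood test, adjusted by Benjamini-Hochberg over all tested genes, at a threshold of 0.05. The mitochondrial count of rises was 3 without DMSO replicate 2, without MS1943 replicate 1 or without MS1943 replicate 2, and its median was -0.026 without DMSO replicate 2. Summed over their members, cytosolic transcripts took 2922 and 2835 TPM with DMSO and 3930 and 3895 TPM with MS1943. Mitochondrial transcripts took 537 and 530 TPM with DMSO and 476 and 484 TPM with MS1943. The cytosolic sum was thus 5.44 and 5.34 times the mitochondrial sum in the DMSO libraries and 8.26 and 8.05 times in the treated ones. Under scaling by total reads, the counts were 16 higher and 1 lower for the cytosolic set and 2 higher and 7 lower for the mitochondrial set. That scaling also moved the split over all genes from 5799 higher and 5689 lower to 4619 higher and 6973 lower.

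**Figure D1:**
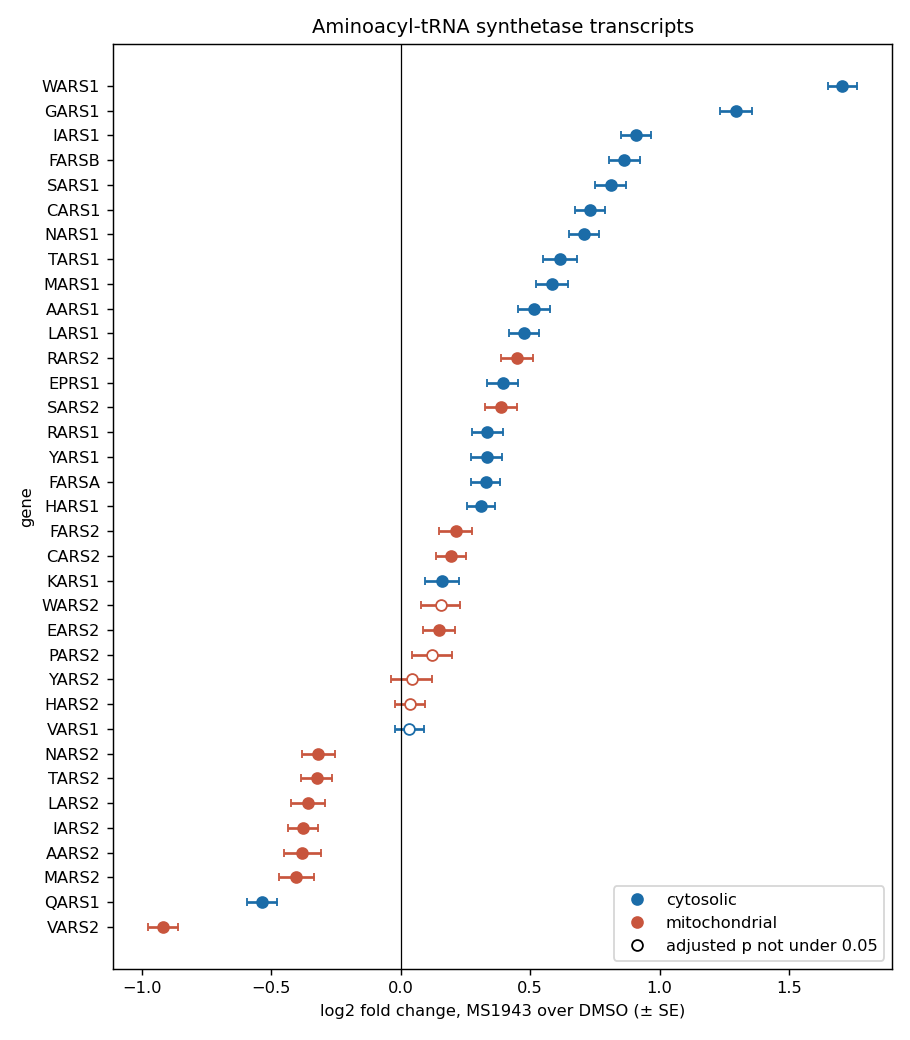
Log2 fold change (x axis, MS1943 over DMSO, bars are SE) of the 35 synthetase genes (y axis), blue for cytosolic and red for mitochondrial, with open points for genes that did not pass. WARS1 stands highest at 1.71 and VARS2 lowest at -0.92, and QARS1 at -0.54 is the one blue point among the falls.

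The element through which ATF4 and C/EBP factors act was searched as TGATGNAA on both strands in RefSeq promoters (GRCh38.p14, 250 bases before to 50 after the start). The promoter table held 16 of the 19 cytosolic genes and 14 of the 16 mitochondrial genes, and LARS1, VARS1, YARS1, AARS2 and VARS2 were not matched. Of the 16, 7 held the letters, as did 1 of the 14, against 4.46% of all 27305 genes in the table and 2.83% of the 12771 tested genes found there. The windows below are 30 bases each and read 5′ to 3′ on the gene's strand. They show these 8 matches with the match in capitals, because nearly all lie in the cytosolic set.

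AARS1: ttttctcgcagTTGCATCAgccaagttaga
CARS1: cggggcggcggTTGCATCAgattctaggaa
GARS1: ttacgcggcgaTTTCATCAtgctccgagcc
IARS1: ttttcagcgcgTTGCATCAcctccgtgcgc
MARS1: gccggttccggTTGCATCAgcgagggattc
NARS1: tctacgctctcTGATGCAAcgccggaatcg
TARS1: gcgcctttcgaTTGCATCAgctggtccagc
YARS2: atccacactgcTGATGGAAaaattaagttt

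In 6 of the 7 cytosolic matches the letters are TTGCATCA or its reverse complement TGATGCAA. They lie close to the RefSeq start. The match begins 2 bases before it in CARS1, 4 in MARS1, 13 in IARS1 and 33 in GARS1, and at base 3 of the transcript in TARS1 and base 15 in NARS1. AARS1, with a match 187 bases before the start, and YARS2, with one 197 bases before, are the exceptions. On GRCh38.p14 the printed windows are chr16:70289675-70289704 (AARS1, minus strand), chr11:3057407-3057436 (CARS1, minus), chr7:30594834-30594863 (GARS1, plus) and chr9:92293692-92293721 (IARS1, minus). The others are chr12:57488053-57488082 (MARS1, plus), chr18:57621804-57621833 (NARS1, minus), chr5:33440956-33440985 (TARS1, plus) and chr12:32756076-32756105 (YARS2, minus). The median log2 fold change was 0.71 over the 7 cytosolic genes with a match and 0.34 over the 9 without. All 7 with a match were called higher, as were all of the 9 without except QARS1. WARS1, FARSB and SARS1 were among the 9, so the largest rise came from a gene with no match in this window. Over all tested genes in the table the medians were 0.10 with a match and -0.01 without. A match is a description of letters and not of binding.

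Among cytosolic genes outside the multisynthetase complex, 11 of 12 rose (median 0.66) and VARS1 did not pass. WARS1, the tryptophan enzyme (chromosome 14, 100333788 to 100376805 on hg38), stood at 84.6 and 80.6 CPM with DMSO and at 273 and 266 CPM with MS1943. Both treated libraries lay above 3 times either control, a log2 fold change of 1.71 ± 0.06 (edgeR adjusted p = 6.52e-15). GARS1, the glycine enzyme of both compartments (chromosome 7, 30594681 to 30634033), went from 289 and 268 CPM to 674 and 693 CPM (1.30 ± 0.06, edgeR adjusted p = 9.41e-13). SARS1, which charges serine and also supplies the tRNA used for selenocysteine, went from 300 and 274 CPM to 506 and 500 CPM (0.81 ± 0.06). In none of these 3 genes did the groups overlap, which is likely in advance for genes called on 2 against 2 libraries.

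Smaller rises made up the rest of the free enzymes. CARS1, the cysteine enzyme, rose from 84.3 and 79.6 CPM to 139 and 132 CPM (0.73 ± 0.06). NARS1, the asparagine enzyme, rose from 183 and 172 CPM to 287 and 291 CPM (0.71 ± 0.06), and TARS1, the threonine enzyme, from 248 and 216 CPM to 359 and 352 CPM (0.62 ± 0.06). AARS1, which charges alanine, rose from 303 and 279 CPM to 429 and 402 CPM (0.52 ± 0.06). The tyrosine enzyme gene YARS1 rose by 0.33 ± 0.06 and the histidine enzyme gene HARS1 by 0.31 ± 0.05. VARS1, the valine enzyme, stood at 277 and 272 CPM with DMSO and at 282 and 280 CPM with MS1943 (0.03 ± 0.06, edgeR adjusted p = 0.634).

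The phenylalanine enzyme of the cytosol is built from equal numbers of alpha and beta chains, encoded by FARSA and FARSB. FARSB, the beta chain, rose from 54.8 and 49.6 CPM to 93.1 and 96.8 CPM (0.86 ± 0.06). FARSA, the alpha chain, rose less, from 220 and 210 CPM to 272 and 268 CPM (0.33 ± 0.06). FARSA transcripts were 11.5 and 12.1 times as abundant as FARSB in TPM with DMSO and 8.33 and 7.95 times with MS1943. Part of the FARSA estimate came from a retained-intron transcript, FARSA-209, with 10.9% to 15.4% of the gene's reads. On protein-coding transcripts alone the ratio was 9.10 and 8.67 with DMSO and 5.93 and 5.86 with MS1943. The alpha message thus remained the more abundant of the pair in all 4 libraries.

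In the multisynthetase complex 6 of the 7 members rose (median 0.39). IARS1, the isoleucine enzyme (chromosome 9, 92210207 to 92293756), rose from 233 and 216 CPM to 429 and 414 CPM (0.91 ± 0.06, edgeR adjusted p = 1.27e-10). MARS1, the methionine enzyme, rose from 328 and 306 CPM to 491 and 459 CPM (0.58 ± 0.06). LARS1, which charges leucine and also serves as a leucine sensor for mTORC1, rose from 182 and 171 CPM to 253 and 238 CPM (0.48 ± 0.06). EPRS1 rose by 0.39 ± 0.06 and the arginine enzyme gene RARS1 by 0.34 ± 0.06. KARS1 barely passed, from 255 and 224 CPM to 278 and 256 CPM (0.16 ± 0.07, edgeR adjusted p = 0.0462). That call was lost when DMSO replicate 2 was left out (0.06, edgeR adjusted p = 0.378) and when MS1943 replicate 1 was (0.08, adjusted p = 0.365). DESeq2 did not call KARS1 either (adjusted p = 0.0626).

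QARS1, the glutamine enzyme (chromosome 3, 49095932 to 49105135), was the exception in the complex. It fell from 203 and 188 CPM to 137 and 132 CPM (-0.54 ± 0.06, edgeR adjusted p = 1.40e-07), with no overlap between the groups. On average 47.8% of its reads with DMSO and 47.1% with MS1943 were assigned to protein-coding transcripts, and these shares overlapped between the groups. The transcript QARS-205, annotated as subject to nonsense-mediated decay, held 34.1% to 41.0%. On protein-coding transcripts alone the log2 fold change of QARS1 was -0.55. A low coding share was not particular to QARS1. In TARS1 the mean share was 45.6% with DMSO and 44.3% with MS1943, and on protein-coding transcripts alone its log2 fold change was 0.58. Of the 3 non-enzyme scaffold proteins that hold the complex, EEF1E1 rose by 0.41 ± 0.06, AIMP1 by 0.18 ± 0.06 (edgeR adjusted p = 0.0178) and AIMP2 by 0.14 ± 0.05 (adjusted p = 0.0345).

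The falls among the mitochondrial enzymes were led by VARS2, which charges valine (chromosome 6, 30908242 to 30926459). It went from 77.3 and 78.7 CPM with DMSO to 42.7 and 39.8 CPM with MS1943 (-0.92 ± 0.06, edgeR adjusted p = 7.00e-11). Both treated libraries lay below both controls, while the cytosolic partner VARS1 did not pass. The other 6 falls were smaller. IARS2 (isoleucine), the most abundant mitochondrial member with DMSO, went from 245 and 230 CPM to 177 and 188 CPM (-0.38 ± 0.06). MARS2 (methionine) went from 25.5 ± 0.67 CPM to 19.3 ± 0.72 CPM (SD, n = 2; log2 fold change -0.40 ± 0.07), and AARS2 (alanine) from 40.8 and 40.4 CPM to 33.5 and 28.7 CPM (-0.38 ± 0.07). LARS2 (leucine, -0.36 ± 0.07), TARS2 (threonine, -0.32 ± 0.06) and NARS2 (asparagine, -0.32 ± 0.06) completed the group. In all 7 the treated libraries lay below both controls. A call on 2 against 2 libraries makes this likely in advance, and the share over all tested genes was not counted. Each of the 7 log2 fold changes stayed negative in the 11 alternative settings.

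Of the mitochondrial rises, RARS2 and SARS2 were the largest. RARS2, the arginine enzyme, went from 75.9 ± 6.99 CPM to 104 ± 1.76 CPM (SD, n = 2), with no overlap. Its log2 fold change was 0.45 ± 0.06 (edgeR adjusted p = 3.73e-06). SARS2, the serine enzyme, went from 31.8 and 30.3 CPM to 41.8 and 39.4 CPM (0.39 ± 0.06), a call that ended with limma on log2(TPM + 0.1) (adjusted p = 0.0633). The other 3 calls were weak. FARS2 (phenylalanine) rose by 0.21 ± 0.06, but not without MS1943 replicate 2 (0.17, adjusted p = 0.0759). CARS2 (cysteine) rose by 0.19 ± 0.06, but not without DMSO replicate 2 (0.13, adjusted p = 0.0683) or MS1943 replicate 1 (0.16, adjusted p = 0.0564). EARS2 (glutamate) sat at the threshold (0.15 ± 0.06, adjusted p = 0.0498) and did not pass without DMSO replicate 2 (adjusted p = 0.223), MS1943 replicate 1 (adjusted p = 0.275) or MS1943 replicate 2 (adjusted p = 0.0878). The 4 genes that did not pass were WARS2 (0.15 ± 0.07), PARS2 for proline (0.12 ± 0.08), YARS2 (0.04 ± 0.08) and HARS2 (0.04 ± 0.06). WARS2 passed without DMSO replicate 1 (0.22, adjusted p = 0.0301).

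Setting partners side by side removes the scaling between libraries, because both values come from the same library. There were 17 such pairs over 16 amino acids, with EPRS1 set against both EARS2 and PARS2, and FARS2 set against both FARSA and FARSB. The ratio of cytosolic to mitochondrial TPM was higher with MS1943 in 16 pairs and lower in 1. The median change was 0.65 on the log2 scale. With 2 libraries against 2, the exact two-sided permutation test of a ratio cannot give a p below 0.333, and no other test of single pairs was run, so their ratios are given as values. Pairs that share EPRS1 or FARS2 are not independent.

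The tryptophan pair moved most. WARS1 was 8.01 and 7.97 times as abundant as WARS2 with DMSO, and 26.3 and 23.0 times with MS1943 (change of 1.62 on the log2 scale). The methionine ratio, MARS1 over MARS2, went from 18.6 and 17.9 to 41.0 and 36.5. The asparagine ratio went from 3.94 and 4.37 to 9.08 and 8.41, and the leucine ratio from 9.17 and 8.72 to 17.7 and 14.8. In the valine pair the ratio rose from 2.81 and 2.43 to 4.69 and 4.79, where VARS2 fell and VARS1 did not pass. At the other end, RARS1 over RARS2 stood at 1.58 and 1.78 with DMSO and was lower in both treated libraries, a change of -0.16 on the log2 scale. That change was -0.077 without DMSO replicate 2 and -0.25 without DMSO replicate 1.

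**Figure D2:**
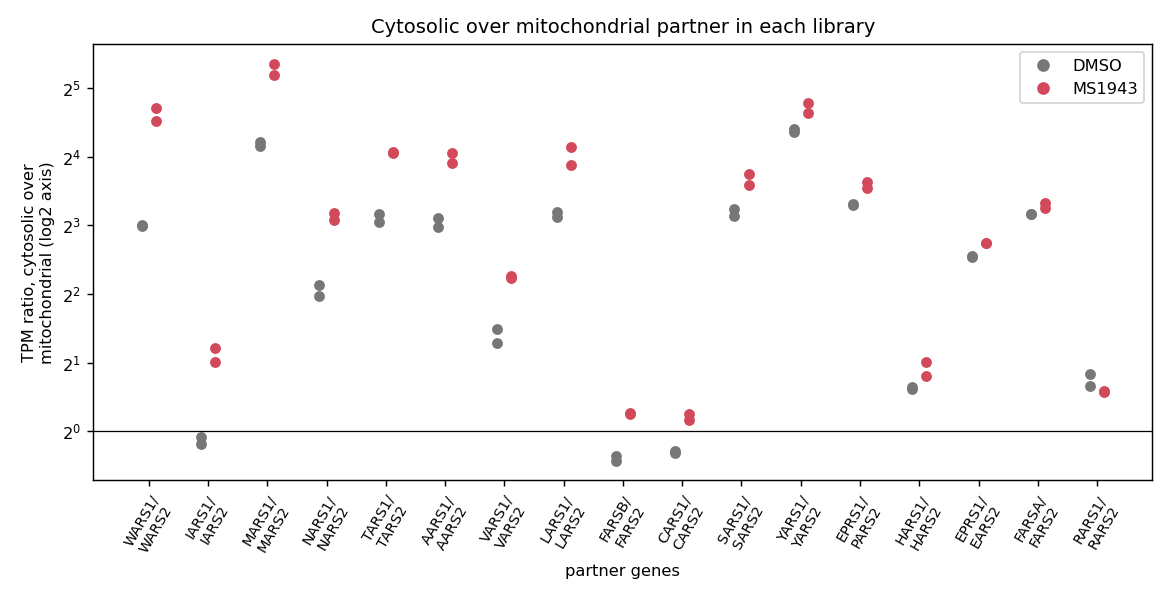
Ratio of cytosolic to mitochondrial TPM (y axis, log2 scale) in each of the 4 libraries for the 17 partner pairs (x axis, sorted by change), grey for DMSO and red for MS1943, with a line at equal abundance. The ratio is higher with MS1943 in 16 pairs, most in WARS1 over WARS2, and lower in RARS1 over RARS2.

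In 3 pairs the order of the partners changed. IARS1 stood at 96.6 and 87.4 TPM with DMSO, below IARS2 at 102 and 99.5 TPM. With MS1943, IARS1 stood at 159 and 148 TPM and IARS2 at 68.6 and 73.1 TPM. CARS1 at 53.6 and 52.3 TPM was below CARS2 at 65.4 and 65.0 TPM with DMSO. With MS1943, CARS1 reached 83.3 and 78.0 TPM against 69.9 and 69.5 TPM for CARS2. FARSB at 24.2 and 22.7 TPM was below FARS2 at 31.0 and 30.6 TPM with DMSO, and above it with MS1943, at 38.2 and 39.8 against 31.8 and 33.3 TPM. On TPM summed over all transcripts, the mitochondrial gene of these 3 pairs was thus higher in both control libraries. The cytosolic one was higher in both treated libraries. With DMSO, 80.3% and 73.9% of CARS2 reads were on protein-coding transcripts, with CARS2-201 at 43.2 and 37.5 TPM. The main CARS1 coding transcripts stood at 25.3 and 22.9 (CARS-201), 11.4 and 9.09 (CARS-202) and 6.99 and 8.18 TPM (CARS-203). On coding transcripts alone, CARS2 was therefore not clearly above CARS1 with DMSO. For isoleucine the genes moved in opposite directions. For CARS1 and CARS2, and for FARSB and FARS2, both genes of the pair rose, with the larger log2 fold change in the cytosolic one.

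**Figure D3:**
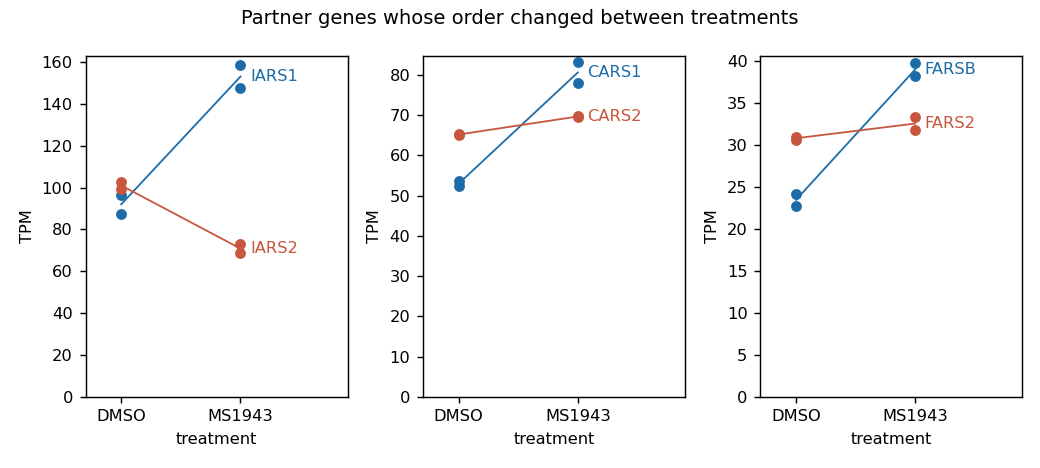
TPM (y axis, from 0) of 3 partner pairs by treatment (x axis), points for libraries and lines joining group means, blue for cytosolic and red for mitochondrial genes. In each panel the red gene is higher with DMSO and the blue gene with MS1943, on TPM summed over all transcripts.

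Levels differed widely within each set. With DMSO, cytosolic genes spanned 23.4 (FARSB) to 278 TPM (SARS1) by group mean, and mitochondrial genes 9.40 (PARS2) to 101 TPM (IARS2). SARS1 (278 ± 11.9 TPM, SD, n = 2) and FARSA (276 ± 2.17 TPM) did not differ beyond their spread. With MS1943 the cytosolic range was 39.0 (FARSB) to 448 TPM (SARS1), and GARS1 came next at 395 ± 25.6 TPM. The mitochondrial range with MS1943 was 8.29 (LARS2) to 88.9 TPM (RARS2), so RARS2 took the first place that IARS2 held with DMSO.

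Transcript estimates showed shifts within some genes. WARS1 is read from start regions 691 bases apart, represented by WARS-203 at the distal start and WARS-204 at the proximal one. The 26 transcripts starting downstream of the distal start region are not limited to the proximal start. Together they held 26.6% ± 0.99 (SD, n = 2) of the gene's reads with DMSO and 44.5% ± 2.85 with MS1943. The share of WARS-203 was 59.5% and 58.5% in the DMSO libraries against 45.7% and 43.2% in the treated ones, while its TPM went from 31.4 and 30.5 to 72.3 and 66.9. WARS-204 went from 24.6% and 22.2% to 32.0% and 33.8%. The transcripts also differ in coding length. Those encoding the full 471 codons went from 24.9% ± 1.93 to 36.3% ± 3.05 of the gene's reads, and those of 430 codons from 62.3% ± 0.43 to 51.2% ± 2.66. The shorter protein lacks part of the amino-terminal extension of the enzyme.

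In IARS1, the transcript IARS-202 went from 49.9% and 48.1% to 63.3% and 62.0% of the reads. In VARS2, VARS2-211 went from 36.6% and 35.3% to 21.9% and 21.5%, and VARS2-212 from 27.4% and 24.9% to 34.6% and 35.5%. In EARS2, EARS2-207 went from 17.8% and 9.10% to 35.3% and 34.3%, and EARS2-201 from 68.9% and 75.4% to 50.4% and 48.1%. Both EARS2 transcripts encode 523 codons and their annotated starts lie 25 bases apart. KARS1 is the gene in which transcripts tell the compartments apart, since KARS-202 encodes 625 codons and is known as the mitochondrial form, 28 codons longer than the cytosolic KARS-201. KARS-202 held 9.11% ± 0.74 of the reads with DMSO and 9.96% ± 0.21 with MS1943, a difference of about the spread. The forms of GARS1 come from different start codons in 1 message, which these files do not separate. The shares were not tested and are given as values. Salmon divides reads among overlapping transcripts by a model whose error is not in the files.

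**Figure D4:**
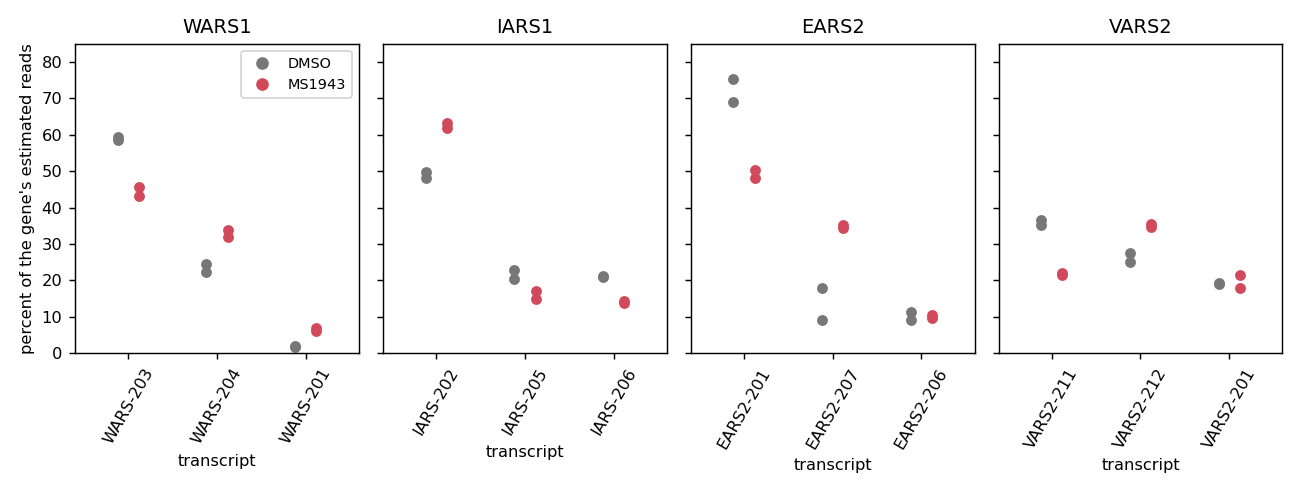
Percent of each gene's estimated reads (y axis) on its leading transcripts (x axis) in 4 synthetase genes, 1 point per library, grey for DMSO and red for MS1943. WARS-204, IARS-202, EARS2-207 and VARS2-212 hold a larger share in the treated libraries, and WARS-203, EARS2-201 and VARS2-211 a smaller one.

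The library kit does not mark strand, so exons shared with a gene on the other strand matter for some members. Of the 35 genes, 14 share exon bases with another tested gene. MARS1 shares 355 bases with DDIT3, which encodes the stress factor CHOP and rose from 5.58 ± 0.097 CPM to 50.4 ± 0.50 CPM (SD, n = 2; log2 fold change 3.17 ± 0.07, edgeR adjusted p = 3.63e-17). The leading transcript MARS-201, with 87.2% to 90.5% of the MARS1 reads, shares 62 of its 2905 bases with DDIT3, and it went from 153 and 149 TPM to 209 and 194 TPM. EARS2 shares 370 bases with UBFD1, which rose by 0.87 ± 0.06, though its leading transcript shares 14. Other called genes share more of their leading transcript. SARS2-201 shares 349 of its 2057 bases with MRPS12, which fell (-0.14 ± 0.05). YARS-201 shares 396 of 3238 with S100PBP, which fell (-0.36 ± 0.06), and HARS-205 shares 221 of 1896 with WDR55, which did not pass. HARS1 and HARS2 are divergent neighbours whose RefSeq starts lie 85 bases apart, and they share 437 exon bases. HARS1 rose and HARS2 did not pass. VARS2 shares 1858 bases with GTF2H4 on the same strand, though VARS2-212, its transcript with the largest mean share, has 0 of them. GTF2H4 went from 52.9 and 52.7 CPM to 59.0 and 56.6 CPM (0.13 ± 0.06, edgeR adjusted p = 0.0488), the opposite direction to VARS2. How far shared bases moved reads between these genes was not tested.

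Of 24 listed ATF4 targets of amino acid supply and stress, 19 rose and 0 fell, with a median of 0.87. Over all tested genes, 30.0% were called higher and 29.4% lower. The list was chosen with earlier results of these data known. DDIT3, STC2, ATF3 and SLC7A11 had the smallest adjusted p among them. The secreted glycoprotein gene STC2 rose by 2.35 ± 0.06, the stress factor gene ATF3 by 2.50 ± 0.06, and the cystine transporter gene SLC7A11 by 2.19 ± 0.06. ATF4 transcripts stood at 966 and 929 CPM with DMSO and at 1004 and 964 CPM with MS1943, with no call (0.05 ± 0.06, edgeR adjusted p = 0.461). WARS1 is also known as an interferon-inducible gene. Of 8 listed interferon-stimulated genes, 6 rose and 2 fell (median 0.89), beside the same shares over all tested genes. The antiviral genes MX1 (2.71 ± 0.06), OAS1 (1.15 ± 0.06) and IFIT1 (1.40 ± 0.08) rose, and the guanylate-binding protein gene GBP1 fell (-1.06 ± 0.07). The part of either program in the rise of WARS1 was not tested.

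Downstream of the synthetases, the eEF1 subunits bring charged tRNA to the cytosolic ribosome. Of 4 such genes, EEF1A1 rose (0.33 ± 0.08), EEF1B2 fell (-0.57 ± 0.06) and 2 did not pass. On the mitochondrial side, the amidotransferase that completes glutaminyl-tRNA is made by QRSL1, GATB and GATC. QRSL1 rose (0.34 ± 0.06), GATB fell (-0.34 ± 0.07) and GATC did not pass. MTFMT, which formylates the initiator methionyl-tRNA that MARS2 provides, fell (-0.30 ± 0.09), as MARS2 did. Of 10 mitochondrial translation factors, 4 rose, 1 fell and 5 did not pass (median 0.08). That share of rises lies near the 30.0% called higher over all tested genes. The release factor genes MTRF1L (0.60 ± 0.06) and MTRFR (0.49 ± 0.07) and the elongation factor gene GFM1 (0.35 ± 0.06) rose, and the elongation factor gene TSFM fell (-0.42 ± 0.06). Among 6 synthetase-like, editing and selenocysteine genes, AARSD1, which removes wrongly attached serine from alanine tRNA, rose (0.71 ± 0.06) and 5 did not pass.

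**Figure D5:**
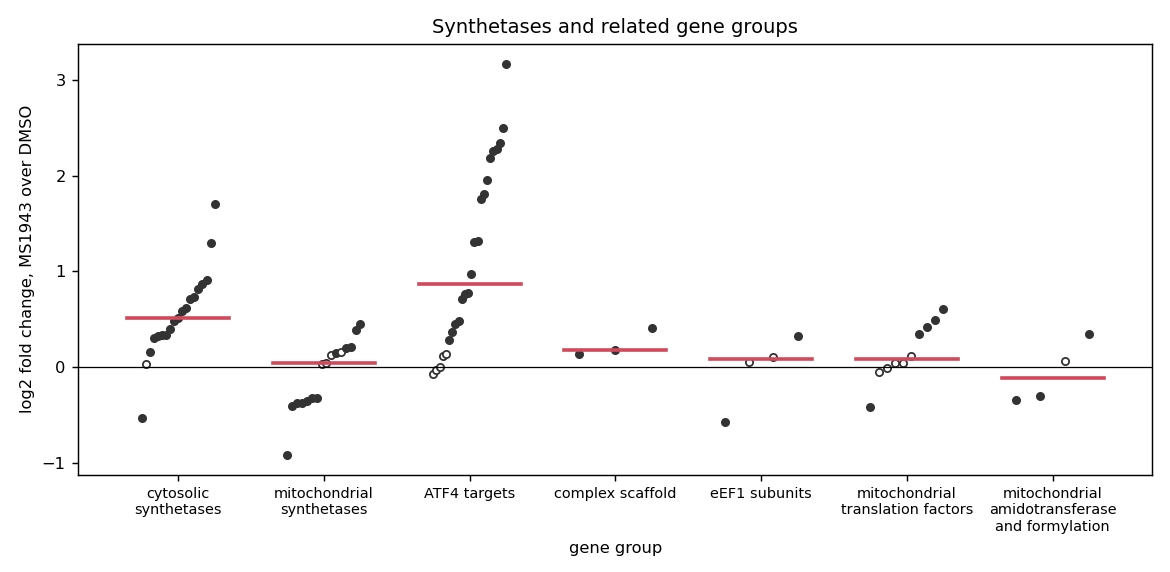
Log2 fold change (y axis, MS1943 over DMSO) of the synthetases and of related gene groups (x axis), 1 point per tested gene, open where it did not pass, with a red line at each group's median. The medians are 0.52 for cytosolic synthetases, 0.04 for mitochondrial synthetases, 0.87 for ATF4 targets and 0.08 for mitochondrial translation factors.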

How the data were processed

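The submitters' processing notes name build hg38, Salmon 0.9.1, DESeq2 and R 3.4.3. Which annotation release served is not given in the sources used here. Deposited estimated counts are Salmon's reads per transcript, and the deposited TPM values are its length-scaled abundances, per the file headers. Deposited transcript lengths and effective lengths, in bases, served the length offset. Of 197653 transcripts, 193505 matched GENCODE 29 by identifier without version, and the rest (0.482% to 0.496% of reads) were left out. Reads and TPM were summed per gene, reads were rounded, and symbols were updated. edgeR 4.0.16 in R 4.3.3 ran the quasi-likelihood F test with TMM, filterByExpr and treatment alone, with Benjamini-Hochberg adjustment over 19358 genes. The SE is the log2 fold change over the square root of F. Libraries are grouped by treatment label. Counts of replicates were not within sampling noise of each other (chi-square over its degrees of freedom was 7.01 for DMSO and 6.50 for MS1943). The test was run on simulated data with this design over 18866 genes. At a 1.5-fold change 39 of 65 genes were called, at 2-fold 42 of 63 and at 4-fold 63 of 65. Of 18673 unchanged genes, 6 were called too. Far fewer genes were changed there than were called in the real libraries (5799 higher and 5689 lower). Its counts therefore do not show how the test does under so wide a change. Alternatives were other scalings, no filter, DESeq2 1.42.0, a length offset, protein-coding transcripts only, each library left out, and limma 3.58.1 on log2(TPM + 0.1) for genes with mean TPM of at least 0.5. Named genes are all 35 members, EZH2, up to 4 genes per list with the smallest adjusted p, and genes overlapping a member; ATF4, the remaining members of short lists and the markers were named outside that rule. Members and lists were chosen with earlier results of these data known.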

Additional observations from a re-analysis of the deposited data

How the results depend on the processing

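Across 11 alternative settings, 29 of the 35 genes stayed on the same side of the threshold in every one, and no called gene changed sign. The 5 genes reported without a call (VARS1, HARS2, YARS2, PARS2 and WARS2) each changed sign in at least 1 setting. The exceptions to the 29 were KARS1, CARS2, EARS2, FARS2 and SARS2, which lost their call in 26 of 385 values, and WARS2, which gained one in 2. The cytosolic count of rises stayed at 16 or 17, and 7 mitochondrial genes were called lower in every setting. The count of mitochondrial rises moved from 5 to 2 with total-read scaling, 3 with the length offset, 1 with limma on log2(TPM + 0.1), and 3 to 6 with each library left out (3 without DMSO replicate 2, MS1943 replicate 1 or MS1943 replicate 2). The mitochondrial median turned negative with total-read scaling (-0.074), with limma (-0.10) and among the leave-one-out fits, which ranged from -0.026 (without DMSO replicate 2) to 0.095; these values lie close to 0, and the first 2 settings also moved the median of all genes to -0.12. The cause was not tested for the length offset. The median change of the partner ratio was 0.65 on estimated reads and on protein-coding transcripts, and 0.62 to 0.69 with each library left out. Where a fit left 1 library in a group, its spread was taken from the other group. The labels give no replicate numbers, and those used here follow accession order and only name a library. The titles carry letters, A and E for DMSO and BCD and FGH for MS1943, which are not explained. They could reflect a block shared between the groups, or unequal pooling, and neither was tested. No paired or blocked fit was therefore run. The members with fewest reads, down to 641 in a library, carry the largest counting error, and 2 libraries per group limit the precision.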
